A study of Mus musculus with 12 samples.

Results

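The 83 genes described here are every gene of the count table whose symbol starts with Il and a number, out of 21956 genes in all. They encode interleukins, the signalling proteins with which immune and tissue cells address each other, and their receptors, receptor accessory chains and antagonists. Il4i1 came in by its symbol alone, since it encodes an amino acid oxidase. Bulk RNA-seq was done on brain tissue next to the hematoma, in 12 libraries, 3 in each of 4 groups. Each library is taken here as 1 mouse, which the sample titles do not state. ICH mice had an intracerebral hemorrhage made by collagenase injected into the striatum, and tissue was taken 48 h later, whereas sham mice had the same surgery without collagenase. Sham-Fabp4fl_fl and ICH-Fabp4fl_fl mice carried loxP-flanked (flox/flox) alleles of Fabp4, a fatty acid binding protein gene. Sham-Fabp4CKO and ICH-Fabp4CKO mice carried the same alleles with a tamoxifen-inducible CreERT2 driven by Tmem119, a microglial gene, so Fabp4 should be lost in microglia only and other cells of the tissue keep it. The Fabp4CKO mice received tamoxifen for 7 days and had surgery 14 days later. The sources used here do not say whether the Fabp4fl_fl mice received tamoxifen, nor give the age and sex of the sequenced animals. Sample titles of ICH-Fabp4fl_fl alone carry an extra suffix, whose meaning they do not give.

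Interleukins signal through receptor families that share chains. The IL-1 family acts through receptor pairs that recruit the adaptor MyD88, and it is restrained by a receptor antagonist (IL-1Ra, from Il1rn), a decoy receptor (from Il1r2) and a soluble binding protein for IL-18 (from Il18bp). The IL-6 family signals through gp130 (from Il6st), and the IL-2, IL-4, IL-7, IL-15 and IL-21 receptors share the common gamma chain (from Il2rg); both lead to JAK kinases and STAT factors. In brain hemorrhage, interleukins are known as products of microglia, infiltrating leukocytes, glia and vascular cells.

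Library totals ran from 15650813 to 22406216 counts. Fabp4 had 46, 63 and 24 counts in the ICH-Fabp4fl_fl mice and 5, 3 and 10 in the ICH-Fabp4CKO mice, against 2, 1 and 2 in Sham-Fabp4fl_fl and 0 in each Sham-Fabp4CKO mouse. Some libraries stood apart. ICH-Fabp4CKO 1 had 1 count from Y-linked genes against 1302 to 2251 in the others, the pattern of a female among males. No label gives the sex, and the part of sex in the values of this library was not tested. ICH-Fabp4fl_fl 1 had the highest mitochondrial share, 16.3% against 7.9 to 11.9% elsewhere. Sham-Fabp4fl_fl 3 correlated more closely across genes with the Sham-Fabp4CKO libraries (r = 0.984 to 0.986) than with its own group (0.969 and 0.975). Marker genes showed a mixture of cells in every library. The summed level of 10 monocyte and macrophage markers was 26.5 to 29.3 CPM (counts scaled to the normalized library size) in sham mice and 164 to 755 CPM in ICH mice. The summed level of 10 neutrophil markers was 5.82 to 14.6 CPM in sham, 114, 62.6 and 56.9 CPM in ICH-Fabp4fl_fl, and 266, 77.3 and 360 CPM in ICH-Fabp4CKO. That of the microglial markers was 331 to 391 CPM in sham, 1290, 1180 and 1280 CPM in ICH-Fabp4fl_fl, and 2700, 1360 and 4030 CPM in ICH-Fabp4CKO. Marker by marker, these ICH groups differed less than the sums. Of the 7 microglial markers tested, 5 were higher in ICH-Fabp4CKO and 2 lower, with a median log2 fold change of 0.33. The ICH groups did not overlap for 1 of them, and 0 passed edgeR's adjusted threshold. In bulk tissue, fewer cells of a type and less RNA per cell cannot be told apart, and the part of cell numbers in the results was not tested.

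Promoter sequence is shown for 4 members: Il1b and Il1rn, whose fitted changes after hemorrhage were among the largest, and Il6 and Il11, ligands with at most 17 counts in any sham mouse. The windows are the 250 bases before the transcription start (the most downstream one listed) in RefSeq on GRCm38.p6, read 5′ to 3′ on the gene's strand. Capitals mark matches to the AP-1 motif TGANTCA, the C/EBP motif TTGNNCAA, the STAT motif TTCNNNGAA or the NF-kB consensus, searched on both strands.
Il1b, chr2:129371140-129371389, minus strand: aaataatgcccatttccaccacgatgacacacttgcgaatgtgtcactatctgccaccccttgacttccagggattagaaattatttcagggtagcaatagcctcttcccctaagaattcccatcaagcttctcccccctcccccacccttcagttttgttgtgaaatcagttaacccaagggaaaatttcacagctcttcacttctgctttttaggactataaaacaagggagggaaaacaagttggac
Il1rn, chr2:24345121-24345370, plus strand: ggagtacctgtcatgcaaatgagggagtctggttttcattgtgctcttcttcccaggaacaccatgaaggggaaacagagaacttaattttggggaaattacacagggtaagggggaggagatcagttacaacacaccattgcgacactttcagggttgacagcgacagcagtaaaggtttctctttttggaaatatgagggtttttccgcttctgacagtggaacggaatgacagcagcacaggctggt
Il6, chr5:30012864-30013113, plus strand: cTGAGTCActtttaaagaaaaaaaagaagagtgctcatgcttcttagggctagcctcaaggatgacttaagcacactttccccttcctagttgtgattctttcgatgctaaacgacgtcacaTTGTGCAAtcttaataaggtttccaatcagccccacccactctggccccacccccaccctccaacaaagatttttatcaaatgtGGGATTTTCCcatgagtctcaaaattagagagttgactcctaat
Il11, chr7:4778142-4778391, minus strand: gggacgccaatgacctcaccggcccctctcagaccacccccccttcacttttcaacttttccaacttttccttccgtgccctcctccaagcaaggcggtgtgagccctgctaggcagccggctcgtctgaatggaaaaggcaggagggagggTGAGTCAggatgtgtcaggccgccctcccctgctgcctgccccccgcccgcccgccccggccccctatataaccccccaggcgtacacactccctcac

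The Il6 window held an AP-1 match (TGAGTCA, its first base 249 bases upstream of the start), a C/EBP match (TTGTGCAA, 128 bases upstream) and an NF-kB match (GGGATTTTCC, 44 bases upstream). The Il11 window held 1 AP-1 match, 98 bases upstream. The Il1b and Il1rn windows held none of the 4 motifs, which says only that these letters are not in these 250 bases. RefSeq windows were found for 62 of the 83 members, 76 windows in all. AP-1 matches stood in 17.1% of the members' windows and in 6.75% of all 32851 windows of the same length. Among the 26 windows of members that rose after hemorrhage in Fabp4fl_fl mice, the share was 7.69%, against the same 6.75%. In those 26 windows, the shares for STAT and NF-kB were 7.69% each, against 7.02% and 7.25% of all windows, and the C/EBP share was 11.5% (3 windows) against 5.65%.

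Many interleukin genes were barely detected. Il3, Il4, Il9, Il17f, Il20, Il31 and Il36b had 0 counts in all 12 libraries, which at these depths does not show absence, and 22 of the 83 members had at most 3 counts in every library. Il10, the anti-inflammatory ligand whose receptor is described below, had 2, 3 and 4 counts in ICH-Fabp4fl_fl and 1, 2 and 3 in ICH-Fabp4CKO, against 0 in every sham mouse. Il17a had counts only in ICH-Fabp4fl_fl 3 (3 counts) and ICH-Fabp4CKO 3 (2 counts). The T-cell ligands Il2, Il4, Il13 and Il21 never exceeded 4 counts. Most values below therefore describe receptors, antagonists and a small number of ligands.

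Hemorrhage was first compared with sham in Fabp4fl_fl mice, the comparison that gives the response with Fabp4 intact. Of the 83 members, 40 passed the filter on low counts, 27 of them were higher after ICH and 1 lower, with adjusted p-values below 0.05 (quasi-likelihood F-test in edgeR, Benjamini-Hochberg adjustment over all genes tested). Over all 14719 genes tested, 45.6% were called, 26.2% higher and 19.3% lower. At an unadjusted p under 0.05, 27 members were higher and 1 lower, against 55.2% of all genes (30.3% higher, 24.9% lower). DESeq2 called 27 higher and 1 lower, against 51.4% (26.6% higher, 24.8% lower). ICH and sham mice did not overlap for 29 members, 28 higher and 1 lower, against 62% of all genes (33% higher, 29% lower). The median log2 fold change was 1.91 over the members tested and 0.02 over all genes tested. A low gene passes the filter through the group where it is high, so these shares do not describe all 83 members. Leaving out 1 library at a time gave 22 to 31 members higher, 47.8 to 72.1% of those tested, against 17.6 to 28.9% of all genes. Of the 27 members, 22 were called in every one of these fits. The exceptions were Il6st, Il1rap, Il33, Il11ra1 and Il2ra: all 5 calls were lost without Sham-Fabp4fl_fl 2, those of Il6st, Il1rap and Il33 also without Sham-Fabp4fl_fl 3, ICH-Fabp4fl_fl 1 or ICH-Fabp4fl_fl 2, and that of Il6st without Sham-Fabp4fl_fl 1.

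The same comparison in Fabp4CKO mice had 43 members tested, 33 higher and 1 lower after ICH, against 35.6% of 14737 genes called, 24.5% higher and 11.1% lower. At an unadjusted p under 0.05, 34 were higher and 3 lower, against 52.4% (30.3% higher, 22.2% lower). DESeq2 called 34 higher and 4 lower, against 52.2% (28.2% higher, 24% lower). The mice did not overlap for 34 higher and 4 lower members, against 62.4% of all genes (32.1% higher, 30.3% lower). The median was 2.99 over the members tested and 0.01 over all genes tested (log2 fold change). This count rested on all 3 sham libraries: without Sham-Fabp4CKO 1, 2 or 3 it was 18, 18 or 17 members higher (39.1%, 38.3% and 36.2% of those tested), and the share of all genes called higher went down with it, from 24.5% to 5.32%, 5.12% and 4.69%. Of the members, 15 of the 33 were called in every fit that left out a library. The other calls, each lost in at least 1 such fit, were Il1b, Il18bp, Il1r2, Il1rap, Il1rl1, Il18r1, Il18rap, Il6, Il11, Il6st, Il11ra1, Il27ra, Il7r, Il15, Il2rb, Il10rb, Il12rb2 and Il17rc. The members called higher in both genotypes numbered 26, which is 96.3% of those called in Fabp4fl_fl and 78.8% of those called in Fabp4CKO. Il6, Il11, Il12rb2, Il18r1, Il1rl1 and Il4i1, called in Fabp4CKO only, were below the filter in Fabp4fl_fl. Il2ra, called in Fabp4fl_fl only, was below it in Fabp4CKO. Il16 alone was tested in both genotypes and called higher in just Fabp4CKO, so these shares depend on the filter. Over all genes, 2928 were called higher in both, 75.8% and 81.2% of the respective calls. The fitted change of 23 of these 26 was larger in Fabp4CKO mice and of 3 larger in Fabp4fl_fl mice, so 88.5% were larger in Fabp4CKO against 66.4% of the genes called in both.

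**Figure D1:**
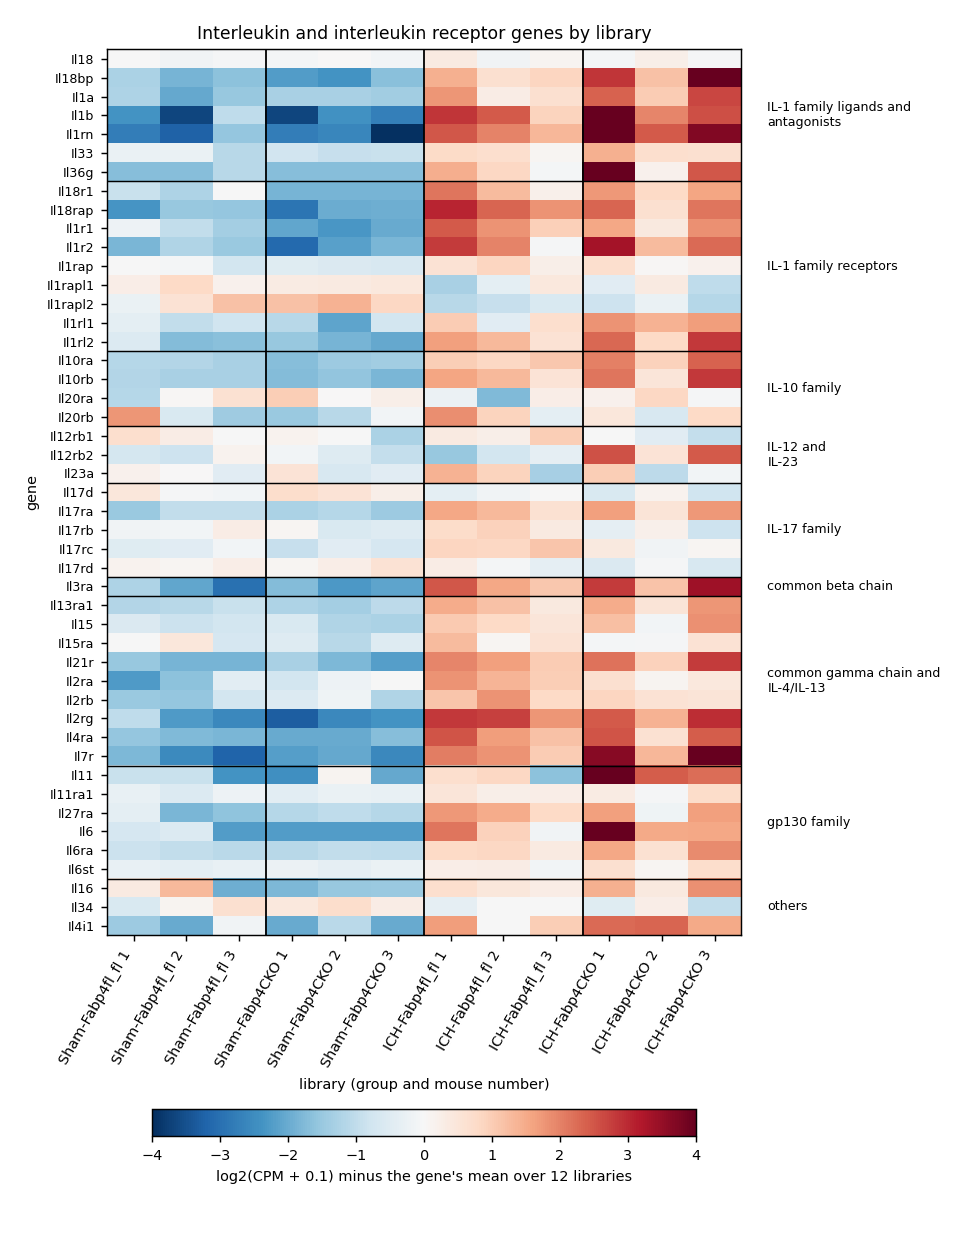
Each row is one of the 47 members that passed the count filter over all 12 libraries, each column a library, and the colour is log2(CPM + 0.1) minus the gene's mean over the libraries, grouped by family. Most rows are blue in the 6 sham columns and red in the ICH columns, ICH-Fabp4CKO 2 is paler than the other ICH-Fabp4CKO libraries, and Il1rapl2 runs the other way.

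**Figure D2:**
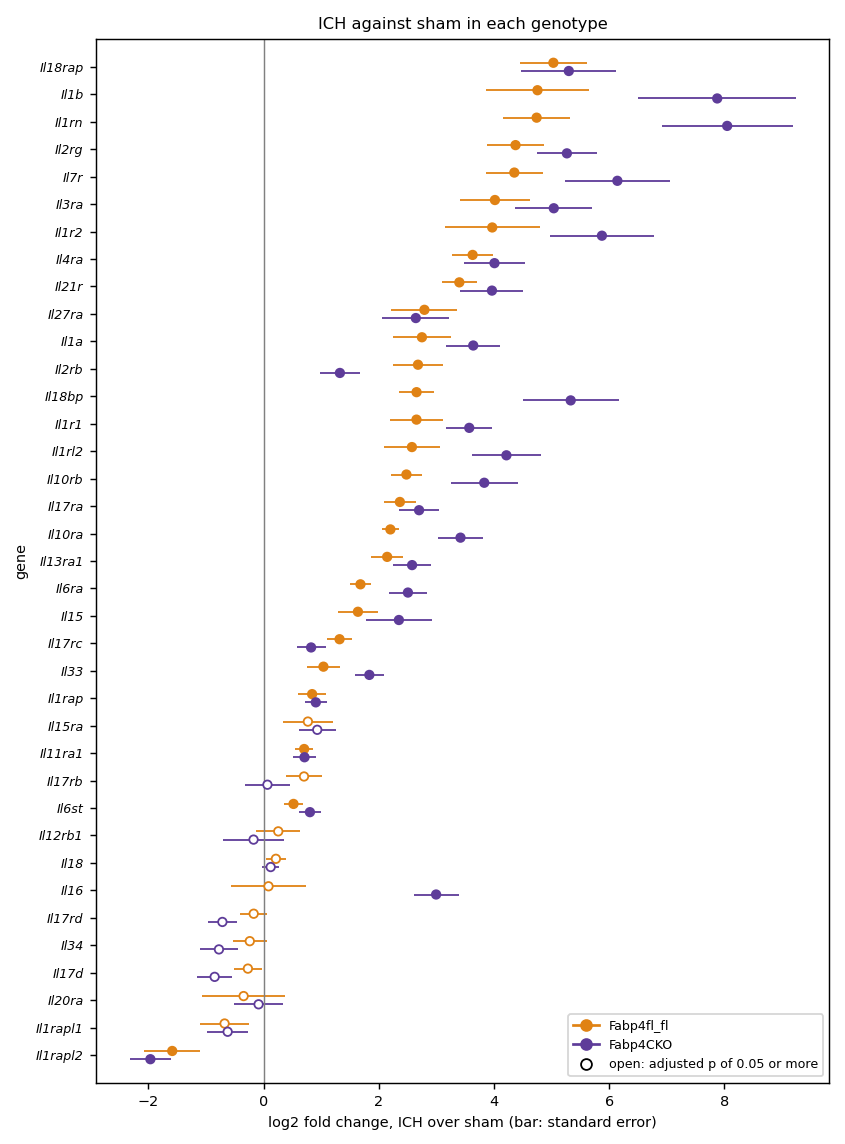
Points are log2 fold changes of ICH over sham with standard errors for the 37 members tested in both genotypes, orange for Fabp4fl_fl and purple for Fabp4CKO, filled where the adjusted p was under 0.05. Il18rap, Il1b and Il1rn lead in Fabp4fl_fl, Il16 is filled in Fabp4CKO alone, and Il1rapl2 is the filled point below 0 in both.

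Among IL-1 family ligands and antagonists, 5 of the 6 tested rose in Fabp4fl_fl mice and 5 of 6 in Fabp4CKO mice. Il1b, the inflammatory ligand IL-1 beta, had 3, 0 and 10 counts in Sham-Fabp4fl_fl mice 1, 2 and 3 and 141, 114 and 43 in ICH-Fabp4fl_fl, or 9.26, 6.89 and 2.29 CPM. In Fabp4CKO mice it had 0, 3 and 2 counts in sham and 708, 91 and 135 after ICH, or 46.1, 4.85 and 7.49 CPM. No ICH mouse overlapped a sham mouse, and ICH-Fabp4CKO 1 stood far above the other ICH mice. The log2 fold change was 4.75 (SE 0.90) in Fabp4fl_fl, with an edgeR adjusted p of 0.00567, and 7.88 (SE 1.37) in Fabp4CKO, with an edgeR adjusted p of 0.0112. Since its sham counts were so few, the ratio of pooled CPM is the safer size, 26.3-fold in Fabp4fl_fl (95% interval 15.1 to 50.0) and 231-fold in Fabp4CKO (98.8 to 714), where the intervals cover counting error only. The Fabp4CKO value leaned on ICH-Fabp4CKO 1, which held 708 of the 934 counts, and without it the ratio was 79.3-fold (33.5 to 247) and the log2 fold change 6.22 (edgeR adjusted p = 0.0237). Without Sham-Fabp4CKO 2 the fitted value was 8.52 (edgeR adjusted p = 0.0581). In Fabp4fl_fl it was 6.17 without Sham-Fabp4fl_fl 3 and 4.16 without Sham-Fabp4fl_fl 2 (edgeR adjusted p = 0.00915 and 0.0177).

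Il1rn, which encodes the antagonist that occupies the IL-1 receptor without signalling, had 4, 2 and 11 counts in Sham-Fabp4fl_fl and 4, 5 and 0 in Sham-Fabp4CKO. After ICH its level was 11, 7.80 and 4.89 CPM in Fabp4fl_fl and 78.3, 10.7 and 25.6 CPM in Fabp4CKO. The log2 fold change was 4.74 (SE 0.59, edgeR adjusted p = 0.00106) in Fabp4fl_fl and 8.05 (SE 1.14, edgeR adjusted p = 0.00743) in Fabp4CKO. It was 6.97 in Fabp4CKO without ICH-Fabp4CKO 1 and 5.59 in Fabp4fl_fl without Sham-Fabp4fl_fl 3 (edgeR adjusted p = 0.0249 and 0.00301). Il1a, the IL-1 alpha alarmin, lay between 0.552 and 1.05 CPM in all 6 sham mice and at 9.13, 3.21 and 4.09 CPM in ICH-Fabp4fl_fl and 13.9, 5.33 and 17.1 CPM in ICH-Fabp4CKO. It rose by a log2 fold change of 2.75 (SE 0.50) and 3.64 (SE 0.47) in the respective genotypes, with edgeR adjusted p-values of 0.00507 and 0.00628, and by 2.14 in Fabp4fl_fl without ICH-Fabp4fl_fl 1 (edgeR adjusted p = 0.00785). Every ICH mouse was above every sham mouse for both genes.

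Il18bp rose in both genotypes, whereas its ligand Il18 did not pass the test in either. Il18, the caspase-1-processed ligand, lay at 14.1 to 15.6 CPM in sham mice, at 19.9, 14 and 16.9 CPM in ICH-Fabp4fl_fl and at 14.7, 18.2 and 15 CPM in ICH-Fabp4CKO. Its log2 fold change was 0.21 (SE 0.18) and 0.12 (SE 0.14), with edgeR adjusted p-values of 0.350 and 0.505. Il18bp, whose product binds IL-18, was at 2.58, 1.66 and 1.94 CPM in Sham-Fabp4fl_fl and 17.1, 9.92 and 11.7 CPM in ICH-Fabp4fl_fl. In Fabp4CKO mice it went from 1.28, 1.13 and 1.92 CPM to 46.1, 14.3 and 113 CPM. The log2 fold change was 2.66 (SE 0.30, edgeR adjusted p = 0.000801) in Fabp4fl_fl and 5.33 (SE 0.83, edgeR adjusted p = 0.00901) in Fabp4CKO, where it was 4.37 without ICH-Fabp4CKO 3 (edgeR adjusted p = 0.0120). The Fabp4CKO call was lost without Sham-Fabp4CKO 1, 2 or 3. Exons of Il18bp overlap those of Numa1 on the opposite strand, and the strand setting of the counting is not given in the sources used here.

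Il33, a nuclear alarmin that oligodendrocytes and astrocytes are known to express, was at 125, 126 and 69.2 CPM in Sham-Fabp4fl_fl, 87.5, 79.3 and 81.9 CPM in Sham-Fabp4CKO, 253, 241 and 157 CPM in ICH-Fabp4fl_fl and 406, 237 and 233 CPM in ICH-Fabp4CKO. It rose by 1.04 (SE 0.29, log2, edgeR adjusted p = 0.0243) and 1.84 (SE 0.25, edgeR adjusted p = 0.00702). Summed oligodendrocyte markers were 8550 to 15000 CPM in sham and 18400 to 26600 CPM after ICH in Fabp4fl_fl. In Fabp4CKO they were 10300 to 11100 CPM and 7240 to 11500 CPM. Summed astrocyte markers went from 2690 to 2860 CPM to 5450 to 7260 CPM, and from 2850 to 2920 CPM to 5420 to 7340 CPM. The part of these cells in the Il33 values was not tested. Il36g, an IL-1 family ligand of barrier tissues, had 1 count in the 6 sham libraries together, 12, 8 and 4 in ICH-Fabp4fl_fl and 136, 5 and 31 in ICH-Fabp4CKO. It was named after its values were seen, and the filter left it out of both comparisons with sham. Over the Fabp4CKO mice its pooled level was at least 71.0-fold higher after ICH, against a floor of 3 counts over the sham group. Of its 172 counts there, 136 came from ICH-Fabp4CKO 1, without which the bound was 21.1-fold.

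**Figure D3:**
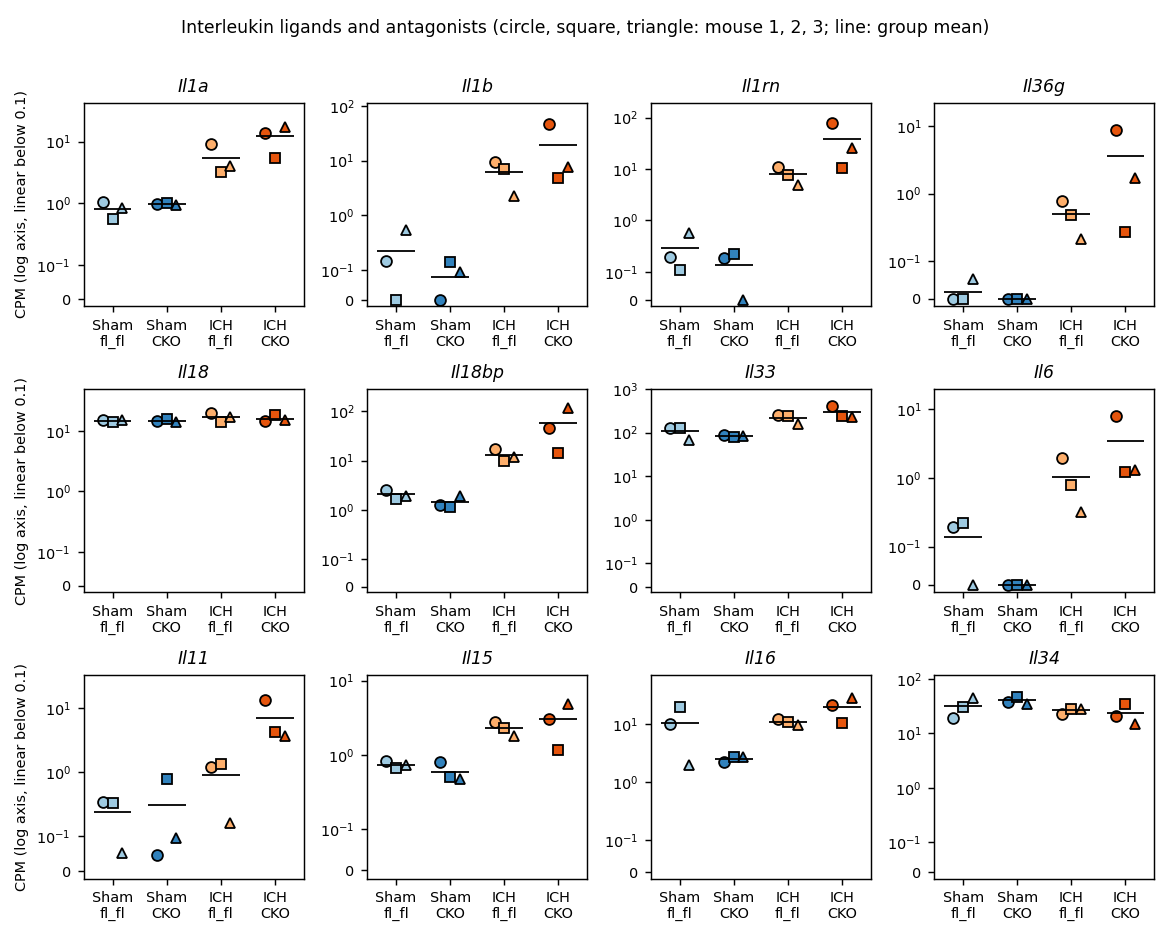
CPM of 12 ligands and antagonists in each mouse, with the y axis logarithmic above 0.1 and linear below; symbols mark mice 1, 2 and 3 and the line is the group mean. Il1b, Il1rn, Il1a and Il18bp separate sham from ICH, Il18 lies within a narrow band in all 12 mice, and for Il1b, Il1rn, Il36g, Il6 and Il11 mouse 1 is the highest in ICH-Fabp4CKO.

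Of the 9 IL-1 family receptor genes, 7 were tested in Fabp4fl_fl (5 rose, 1 fell) and 9 in Fabp4CKO (7 rose, 1 fell). Il18r1 and Il1rl1 passed the filter in Fabp4CKO alone, through their ICH counts, so these tallies do not compare the genotypes. Il1r1, the signalling receptor for IL-1, was at 9.67, 5.52 and 4.20 CPM in Sham-Fabp4fl_fl and 61.1, 38.5 and 21.5 CPM in ICH-Fabp4fl_fl. In Fabp4CKO mice it went from 2.55, 2.13 and 2.62 CPM to 32.3, 14.5 and 39.4 CPM. The rise was 2.65 (SE 0.46, log2, edgeR adjusted p = 0.00393) and 3.57 (SE 0.40, edgeR adjusted p = 0.00549). Il1r2, the decoy receptor that neutrophils express strongly, had 3, 5 and 4 counts in Sham-Fabp4fl_fl and 0, 2 and 3 in Sham-Fabp4CKO, and reached 5.91, 3.33 and 0.744 CPM in ICH-Fabp4fl_fl and 8.60, 1.97 and 4.05 CPM in ICH-Fabp4CKO. Its log2 fold change was 3.97 (SE 0.82, edgeR adjusted p = 0.00814) and 5.87 (SE 0.90, edgeR adjusted p = 0.00864). It was 3.25 without ICH-Fabp4fl_fl 1, 5.18 without ICH-Fabp4CKO 1 and 6.54 without Sham-Fabp4CKO 3 (edgeR adjusted p = 0.0195, 0.0303 and 0.05). In both ICH groups the mouse with the lowest Il1r2 also had the lowest summed neutrophil markers. The same mice had the lowest summed monocyte and macrophage, endothelial, and fibroblast and pericyte markers. In ICH-Fabp4CKO, Il1r2 was highest in mouse 1 and the neutrophil sum in mouse 3. The part of these cells in the result was not tested.

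The shared accessory chain Il1rap rose by 0.84 (SE 0.24, edgeR adjusted p = 0.0260) and 0.91 (SE 0.19, edgeR adjusted p = 0.0179) on the log2 scale. The IL-18 receptor pair was near the floor in sham. Il18rap, its accessory chain, had 1, 3 and 3 counts in Sham-Fabp4fl_fl and 94, 61 and 48 in ICH-Fabp4fl_fl, and 0, 2 and 2 counts against 57, 20 and 58 in Fabp4CKO. Its log2 fold changes were 5.03 (SE 0.58, edgeR adjusted p = 0.000848) and 5.30 (SE 0.82, edgeR adjusted p = 0.00894). Il18r1, the ligand-binding chain, had 2, 1 and 5 counts in Sham-Fabp4fl_fl against 23, 13 and 6 after ICH, and 0 in every Sham-Fabp4CKO mouse against 17, 10 and 18, at least 18.6-fold higher over the group. Il1rl1, the IL-33 receptor ST2, passed in Fabp4CKO (4, 1 and 6 counts in sham, 32, 29 and 34 after ICH, log2 fold change 3.39, SE 0.53, edgeR adjusted p = 0.00886) and was filtered out in Fabp4fl_fl (8, 4 and 5 against 18, 6 and 17 counts). Il1rapl2, a neuronal receptor-like gene of the family, was the member that fell in both genotypes. It went from 0.909, 1.71 and 2.63 CPM to 0.460, 0.544 and 0.691 CPM in Fabp4fl_fl (log2 fold change -1.59, SE 0.49, edgeR adjusted p = 0.0332) and from 2.60, 3.08 and 2.06 CPM to 0.587, 0.906 and 0.444 CPM in Fabp4CKO (-1.97, SE 0.36, edgeR adjusted p = 0.0128). The first of these calls was lost without any one of Sham-Fabp4fl_fl 2, Sham-Fabp4fl_fl 3, ICH-Fabp4fl_fl 1 and ICH-Fabp4fl_fl 2. The second was lost without any one Sham-Fabp4CKO library and without ICH-Fabp4CKO 1. Summed neuronal markers were 4460 to 6210 CPM in sham and 1450 to 4670 CPM after ICH, and their part in this result was not tested.

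In the gp130 family, 4 of 4 members tested in Fabp4fl_fl and 6 of 6 in Fabp4CKO rose. Il6 and Il11 passed the filter in Fabp4CKO alone, through their ICH counts, so these tallies do not compare the genotypes. Il6 itself was close to the floor: 4, 4 and 0 counts in Sham-Fabp4fl_fl, 30, 13 and 6 in ICH-Fabp4fl_fl, 0 in every Sham-Fabp4CKO mouse and 121, 23 and 23 in ICH-Fabp4CKO. In Fabp4CKO it was at least 68.9-fold higher after ICH over the group (edgeR adjusted p = 0.0300), and at least 26.9-fold without ICH-Fabp4CKO 1 (edgeR adjusted p = 0.0353), which held 121 of its 167 counts. Il6 was no longer called there without Sham-Fabp4CKO 1, 2 or 3. In Fabp4fl_fl it did not pass the count filter, and the pooled ratio was 7.03-fold (95% interval 3.30 to 17.2, counting error only). Il11, a fibrosis-associated ligand of the same family, had 1, 17 and 2 counts in Sham-Fabp4CKO and 204, 79 and 67 in ICH-Fabp4CKO (log2 fold change 4.51, SE 1.00, edgeR adjusted p = 0.0209). It was 3.67 without ICH-Fabp4CKO 1 (edgeR adjusted p = 0.0694) and 6.53 without Sham-Fabp4CKO 2 (edgeR adjusted p = 0.0451). In Fabp4fl_fl mice it had 7, 6 and 1 counts in sham and 18, 22 and 3 after ICH, so the groups overlapped.

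The receptor chains of this family were measured well. Il6ra, the IL-6 binding chain, went from 7.75, 7.12 and 6.73 CPM to 24.8, 25.4 and 18.3 CPM in Fabp4fl_fl and from 6.57, 7.12 and 7.07 CPM to 41.9, 21.6 and 53.3 CPM in Fabp4CKO. It rose by 1.68 (SE 0.19, log2, edgeR adjusted p = 0.000729) and 2.51 (SE 0.34, edgeR adjusted p = 0.00671). Il6st rose from 130 to 143 CPM over the sham mice to 158 to 209 CPM in ICH-Fabp4fl_fl and 178 to 272 CPM in ICH-Fabp4CKO, by 0.52 (SE 0.16, edgeR adjusted p = 0.0332) and 0.80 (SE 0.19, edgeR adjusted p = 0.0239) on the log2 scale. Il11ra1 rose by 0.70 (SE 0.15) and 0.71 (SE 0.21), with edgeR adjusted p-values of 0.00958 and 0.0416. Its near copy Il11ra2 never exceeded 3 counts, and reads could have been split between them. Il27ra rose by 2.79 (SE 0.57) and 2.64 (SE 0.58), with edgeR adjusted p-values of 0.00778 and 0.0204, and by 3.58 in Fabp4fl_fl without Sham-Fabp4fl_fl 1 (edgeR adjusted p = 0.00736). Il31ra, the IL-31 receptor chain, ran the other way without passing the filter: it had 3 to 12 counts in each sham mouse, 1 count in ICH-Fabp4fl_fl 1 and 0 in the other 5 ICH mice. It was named after its values were seen.

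Of the common gamma chain and IL-4/IL-13 genes, 8 of 9 tested rose in Fabp4fl_fl and 7 of 8 in Fabp4CKO. Il2ra passed the filter in Fabp4fl_fl alone, through its ICH counts. Il2rg was at 3.16, 1.27 and 0.999 CPM in Sham-Fabp4fl_fl and 47.0, 43.7 and 22.2 CPM in ICH-Fabp4fl_fl, and at 0.567, 0.998 and 1.17 CPM against 36.4, 17.3 and 51.4 CPM in Fabp4CKO. The log2 fold changes were 4.37 (SE 0.50, edgeR adjusted p = 0.000801) and 5.27 (SE 0.52, edgeR adjusted p = 0.00478), with 5.02 in Fabp4fl_fl without Sham-Fabp4fl_fl 1 (edgeR adjusted p = 0.0014). Il4ra, the receptor chain that IL-4 and IL-13 share, went from 9.43, 8.12 and 7.73 CPM to 158, 88.4 and 62.4 CPM in Fabp4fl_fl (3.63, SE 0.36, edgeR adjusted p = 0.000530) and from 6.81, 6.76 and 8.43 CPM to 159, 42.6 and 149 CPM in Fabp4CKO (4.01, SE 0.53, edgeR adjusted p = 0.00652). Of the ligands of Il4ra, Il4 had no count in any library and Il13 had 1 count in all.

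Il7r, a lymphocyte receptor that activated monocytes can also express, went from 0.718, 0.387 and 0.210 CPM to 11.8, 9.86 and 5.69 CPM in Fabp4fl_fl and from 0.520, 0.590 and 0.375 CPM to 35.6, 7.09 and 62.7 CPM in Fabp4CKO. It rose by 4.35 (SE 0.49, log2, edgeR adjusted p = 0.000775) and 6.14 (SE 0.91, edgeR adjusted p = 0.00787), the latter 5.40 without ICH-Fabp4CKO 3 (edgeR adjusted p = 0.0136). The Fabp4CKO call of Il7r was lost without Sham-Fabp4CKO 1, 2 or 3. The summed level of 10 T and NK cell markers was 19.1 to 60.7 CPM in sham mice and 21.6 to 67.3 CPM in ICH mice. Marker by marker, 7 of the 9 tested were higher after ICH in Fabp4fl_fl (median log2 fold change 3.07) and 3 of the 6 tested in Fabp4CKO (median 1.93), and their part in the Il7r values was not tested. Il13ra1 rose by 2.14 (SE 0.28, edgeR adjusted p = 0.00134) and 2.58 (SE 0.33, edgeR adjusted p = 0.00628). Il15, a ligand for natural killer and memory T cells, rose from 0.468 to 0.813 CPM over the sham mice to 2.76, 2.30 and 1.81 CPM in ICH-Fabp4fl_fl (1.64, SE 0.35, edgeR adjusted p = 0.00870) and to 3.06, 1.17 and 4.77 CPM in ICH-Fabp4CKO (2.35, SE 0.57, edgeR adjusted p = 0.0268). Il2ra, the high-affinity IL-2 receptor chain CD25, rose in Fabp4fl_fl from 0, 1 and 5 counts to 24, 19 and 16 (3.45, SE 0.82, edgeR adjusted p = 0.0136). In Fabp4CKO it had 4, 7 and 8 counts in sham and 10, 8 and 10 after ICH, below the filter.

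In the remaining families, Il3ra, the one common beta chain member tested, went from 0.158 to 0.766 CPM over the sham mice to 11.4, 5.93 and 4.20 CPM in ICH-Fabp4fl_fl and 14.2, 4.43 and 21.4 CPM in ICH-Fabp4CKO. It rose by 4.02 (SE 0.61, log2, edgeR adjusted p = 0.00245) and 5.04 (SE 0.67, edgeR adjusted p = 0.00666), the former 4.67 without Sham-Fabp4fl_fl 1 (edgeR adjusted p = 0.00489). Both IL-10 receptor chains rose. Il10ra, the ligand-binding chain, went from 8.04, 7.84 and 7.30 CPM to 35.9, 31.8 and 37.6 CPM in Fabp4fl_fl (2.2, SE 0.15, edgeR adjusted p = 0.000287) and from 5.44, 6.53 and 6.70 CPM to 72.4, 34.0 and 91.4 CPM in Fabp4CKO (3.42, SE 0.38, edgeR adjusted p = 0.00549). Il10rb, the chain shared with the IL-22 and IL-28 receptors, went from 13.3, 12.2 and 12.3 CPM to 89.5, 74.4 and 44.4 CPM (2.48, SE 0.26, edgeR adjusted p = 0.000647) and from 9.08, 10.1 and 8.48 CPM to 134, 42.7 and 213 CPM (3.83, SE 0.58, edgeR adjusted p = 0.00852). The other tested IL-10 family members, Il20ra and Il20rb in Fabp4fl_fl and Il20ra in Fabp4CKO, did not pass.

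Of the 5 IL-17 family genes tested in each genotype, the receptor chains Il17ra and Il17rc rose in both. Il17ra, which all IL-17 receptors share, went from 5.31 to 7.51 CPM over the sham mice to 43.5, 36.6 and 23.1 CPM in ICH-Fabp4fl_fl and 46.6, 21.2 and 49.7 CPM in ICH-Fabp4CKO (log2 fold changes 2.37, SE 0.28, and 2.70, SE 0.35, with edgeR adjusted p-values of 0.000853 and 0.00611). Il17rc, its partner for IL-17A and IL-17F, rose by 1.32 (SE 0.22, edgeR adjusted p = 0.00343) and 0.82 (SE 0.25, edgeR adjusted p = 0.0461). Neither of the 2 IL-12 and IL-23 genes tested passed in Fabp4fl_fl. Il12rb2, which the filter left out there, rose in Fabp4CKO (3.02, SE 0.69, edgeR adjusted p = 0.0227). Il34, a microglial survival ligand made by neurons, had log2 fold changes of -0.24 (SE 0.29, edgeR adjusted p = 0.519) and -0.78 (SE 0.33, edgeR adjusted p = 0.0984). The leucocyte chemoattractant Il16 was uneven in Sham-Fabp4fl_fl, with 10.1, 19.7 and 2.00 CPM, against 12.6, 11 and 9.78 CPM after ICH (0.08, SE 0.65, edgeR adjusted p = 0.924). In Fabp4CKO it rose from 2.22, 2.72 and 2.76 CPM to 21.6, 10.6 and 28.8 CPM (2.99, SE 0.39, edgeR adjusted p = 0.00635). Exons of Il16 overlap those of Stard5 on the opposite strand. Il4i1, the oxidase, rose in Fabp4CKO from 0, 2 and 0 counts to 28, 36 and 19 (5.44, SE 0.81, edgeR adjusted p = 0.00801). In Fabp4fl_fl it had 1, 0 and 5 counts in sham and 18, 5 and 13 after ICH and was filtered out. Its exons overlap those of Nup62 and Atf5.

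Other genes of these pathways, among them ligands and inflammasome genes, were read from a list of 38 signalling partners, of which 37 were tested. The list was chosen with earlier results of these data known, so its shares are descriptive. In each genotype 31 rose and 0 fell by edgeR's adjusted p, 83.8% of those tested, against 26.2% of all genes higher in Fabp4fl_fl and 24.5% in Fabp4CKO. At an unadjusted p under 0.05, 31 rose and 0 fell in Fabp4fl_fl and 32 rose and 1 fell in Fabp4CKO, against 30.3% of all genes higher in each. DESeq2 called 31 higher and 1 lower in each, against 26.6% and 28.2% of all genes higher. Myd88, the IL-1 receptor adaptor, rose by 2.75 (SE 0.21, edgeR adjusted p = 0.000350) and 2.75 (SE 0.38, edgeR adjusted p = 0.00737) on the log2 scale. Socs3, the feedback inhibitor that IL-6 family signalling induces through STAT3, rose by 5.27 (SE 0.43, edgeR adjusted p = 0.000350) and 5.11 (SE 0.50, edgeR adjusted p = 0.00478). The gp130 ligands Osm (5.46, SE 0.95, and 5.57, SE 0.83) and Lif (3.33, SE 0.42, and 3.72, SE 0.55) rose in both genotypes as well, with edgeR adjusted p-values of 0.00411, 0.00807, 0.00111 and 0.00787 in that order. The inflammasome genes that lead to IL-1 beta and IL-18 processing rose too, among them Nlrp3 by 2.49 (SE 0.29, edgeR adjusted p = 0.000871) and 3.99 (SE 0.61, edgeR adjusted p = 0.00873), and Casp1 by 3.51 (SE 0.42, edgeR adjusted p = 0.000947) and 4.63 (SE 0.76, edgeR adjusted p = 0.0100). Jak1, Lifr, Cish, Cntfr and Traf3ip2 did not pass in either genotype.

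Fabp4CKO was then compared with Fabp4fl_fl after ICH, the question of the study's design for this tissue. None of the 45 members tested passed an adjusted p under 0.05 in edgeR, where 0% of the 14600 genes tested did. At an unadjusted p under 0.05, 10 members stood, 6 higher and 4 lower in Fabp4CKO, 22.2% of those tested against 12.2% of all genes (6.36% higher, 5.82% lower). DESeq2 called 3 members higher (Il12rb2, Il11 and Il1rn) and 1 lower (Il17rc), against 3.96% of all genes (1.75% higher, 2.21% lower). The groups did not overlap for 7 members, 3 higher and 4 lower, 15.6% of those tested against 19.8% of all genes (10.3% higher, 9.51% lower). The median log2 fold change was 0.32 over the members and 0.06 over all genes tested. The spread among the ICH-Fabp4CKO mice was wide, since mouse 2 lay below mice 1 and 3 for most receptors. Summed over all members, the level was 1801, 906 and 1757 CPM in ICH-Fabp4CKO mice 1, 2 and 3 and 1329, 1157 and 832 CPM in ICH-Fabp4fl_fl. Without ICH-Fabp4CKO 2, 19 members had an unadjusted p under 0.05, 40.4% of those tested against 20.6% of all genes, and none passed the adjusted threshold. Without ICH-Fabp4CKO 1, ICH-Fabp4CKO 3 or ICH-Fabp4fl_fl 2 the number was 5, 3 and 4, or 10.6%, 6.52% and 8.33% against 7.69%, 7.5% and 7.38% of all genes. Without ICH-Fabp4fl_fl 1 or ICH-Fabp4fl_fl 3 it was 9 and 7, or 18.8% and 14.9% against 7.23% and 10.8% of all genes.

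Il12rb2, the signalling chain of the IL-12 receptor, had 1, 3 and 5 counts in ICH-Fabp4fl_fl and 41, 11 and 45 in ICH-Fabp4CKO, against 3 to 8 in the sham mice. All 3 ICH-Fabp4CKO mice were above all other mice. The log2 fold change between the ICH groups was 3.39 (SE 0.78, edgeR adjusted p = 0.295), the pooled ratio 10.5 (95% interval 5.29 to 23.6, counting error only), and DESeq2 gave an adjusted p of 0.00777. It also passed with all 12 libraries in one edgeR fit (adjusted p = 0.0415). Exons of Il12rb2 overlap those of Serbp1 on the opposite strand. Il12rb1, its partner chain, was lower in ICH-Fabp4CKO, at 1.04, 0.746 and 0.499 CPM against 1.38, 1.27 and 2.18 CPM (log2 fold change -1.09, SE 0.44, edgeR adjusted p = 0.399).

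Il11 had 18, 22 and 3 counts in ICH-Fabp4fl_fl and 204, 79 and 67 in ICH-Fabp4CKO, without overlap. The log2 fold change was 2.99 (SE 0.84, edgeR adjusted p = 0.318; DESeq2 adjusted p = 0.0167), and 2.16 without ICH-Fabp4CKO 1 (edgeR adjusted p = 0.634). Il17rc stood at 7.88, 7.62 and 9.25 CPM in ICH-Fabp4fl_fl and 5.67, 3.84 and 4.49 CPM in ICH-Fabp4CKO, a log2 fold change of -0.83 (SE 0.24, edgeR adjusted p = 0.331; DESeq2 adjusted p = 0.0243). The standard deviation of Il17rc was 0.87 CPM in ICH-Fabp4fl_fl and 0.93 CPM in ICH-Fabp4CKO, beside means of 8.25 and 4.67 CPM. Summed endothelial markers were also lower in the ICH-Fabp4CKO mice, 1220, 817 and 596 CPM against 444, 319 and 370 CPM. So were oligodendrocyte markers, 26600, 23500 and 18400 CPM against 11100, 11500 and 7240 CPM. Within ICH-Fabp4fl_fl, both sums were lowest in mouse 3, where Il17rc was highest. The part of these cells in the Il17rc value was not tested.

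Il1rn (11, 7.80 and 4.89 against 78.3, 10.7 and 25.6 CPM) differed by 2.26 (SE 0.74, log2, edgeR adjusted p = 0.350; DESeq2 adjusted p = 0.0474), and the groups overlapped. Without ICH-Fabp4CKO 1 the value was 1.19 with an edgeR adjusted p of 0.654. Il18bp differed by 2.16 (SE 0.70, edgeR adjusted p = 0.350; DESeq2 adjusted p = 0.0505) and Il7r by 1.94 (SE 0.73, edgeR adjusted p = 0.379; DESeq2 adjusted p = 0.116). Without ICH-Fabp4CKO 3 both fell to 1.22 (edgeR adjusted p = 0.654 and 0.671). Summed neutrophil and microglial markers were also highest in ICH-Fabp4CKO 1 and 3, and their part in these values was not tested. Il1b (1.66, SE 0.95, edgeR adjusted p = 0.519) and Il6 (1.75, SE 0.98, edgeR adjusted p = 0.509) had ICH-Fabp4CKO 1 as the highest value and overlapping groups. Il18 differed by -0.09 (SE 0.21, edgeR adjusted p = 0.889). Il1rl1 was higher in ICH-Fabp4CKO without overlap, at 2.09, 1.55 and 1.89 against 1.18, 0.363 and 0.903 CPM, with a log2 fold change of 1.16 (SE 0.48, edgeR adjusted p = 0.411). Il2ra (-1.13, SE 0.43, edgeR adjusted p = 0.380) and Il17rb (-1.0, SE 0.38, edgeR adjusted p = 0.383) were lower without overlap. Of the 10 T and NK cell markers tested, 9 were lower in ICH-Fabp4CKO and 1 higher, with a median log2 fold change of -0.82. The part of these cells in the Il2ra value was not tested. Il19, an IL-10 family ligand, was too low to be tested and was named after its values were seen: it had 0 counts in the 9 sham and ICH-Fabp4fl_fl libraries and 11, 1 and 15 in ICH-Fabp4CKO. Over the group that is at least 8.73-fold above ICH-Fabp4fl_fl, against a floor of 3 counts.

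**Figure D4:**
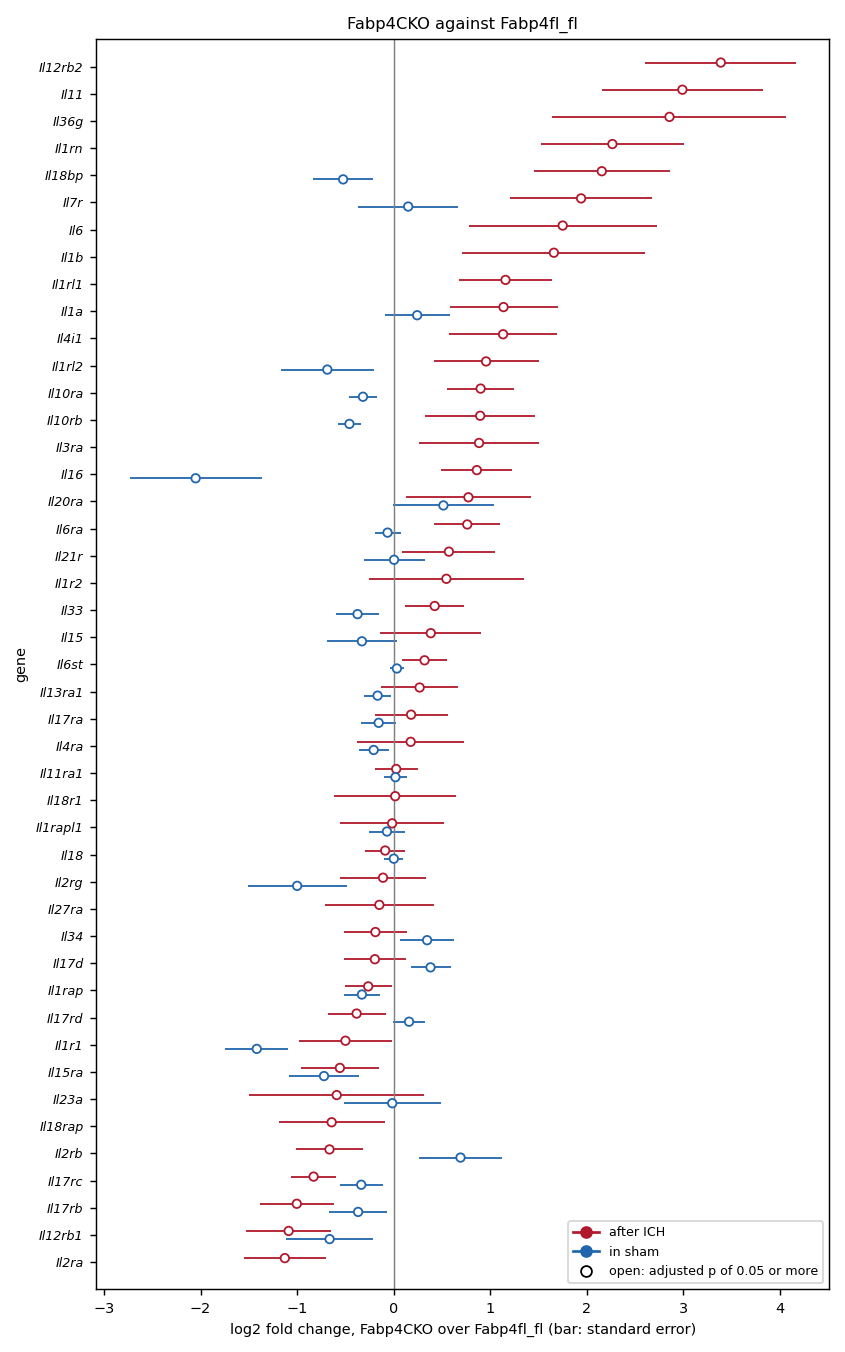
Log2 fold changes of Fabp4CKO over Fabp4fl_fl with standard errors for the 45 members tested after ICH (red), with the sham comparison (blue) where it was tested. Every point is open, since no adjusted p was under 0.05; Il12rb2 and Il11 are the highest after ICH, and Il16 and Il1r1 the lowest in sham.

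Among the 37 signalling partners tested after ICH, 0 passed an adjusted p in edgeR, and 3 had an unadjusted p under 0.05 (8.11%, against 12.2% of all genes); DESeq2 called 1 higher. Jak1 was at a log2 fold change of 0.58 (SE 0.18, edgeR adjusted p = 0.341), Nlrp3 at 1.31 (SE 0.50, edgeR adjusted p = 0.381) and Lifr at -0.56 (SE 0.22, edgeR adjusted p = 0.392). Socs3 was at -0.52 (SE 0.49, edgeR adjusted p = 0.691).

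In sham mice, the comparison of genotypes had 32 members tested and called none in edgeR, against 0.111% of 14395 genes (0% higher, 0.111% lower). At an unadjusted p under 0.05, 0 were higher and 3 lower (Il1r1, Il10rb and Il16), 9.38% of those tested against 10.2% of all genes (4.15% higher, 6.07% lower). DESeq2 called Il1r1 alone, against 1.04% of all genes (0.0764% higher, 0.966% lower). The groups did not overlap for 3 members, all lower (Il1r1, Il10rb and Il10ra), against 14.9% of all genes (6.79% higher, 8.07% lower). Il1r1 stood at 9.67, 5.52 and 4.20 CPM in Sham-Fabp4fl_fl and 2.55, 2.13 and 2.62 CPM in Sham-Fabp4CKO, without overlap. Its log2 fold change was -1.42 (SE 0.32, edgeR adjusted p = 0.322; DESeq2 adjusted p = 0.00818). Summed fibroblast and pericyte markers were 192, 170 and 143 CPM against 134, 124 and 134 CPM, and their part in this value was not tested. Il10rb differed by -0.46 (SE 0.12, edgeR adjusted p = 0.406), also without overlap, and Il16 by -2.05 (SE 0.68, edgeR adjusted p = 0.477), with Sham-Fabp4fl_fl 3 below all Sham-Fabp4CKO mice. Without Sham-Fabp4fl_fl 3, the library that resembled the other genotype, 5 members passed as lower in Fabp4CKO (Il10rb, Il16, Il1r1, Il1rap and Il33) and 1 as higher (Il34), with Il1r1 at -1.65 (edgeR adjusted p = 0.00419) and Il16 at -2.54 (edgeR adjusted p = 0.0011). These 6 are 18.2% of the members tested in that fit, which called 19.6% of all genes.

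The difference between the responses to ICH of the genotypes was tested as an interaction over all 12 libraries. Of the 47 members tested, 0 passed in edgeR, against 0.0199% of 15089 genes (0.0133% with the larger change in Fabp4CKO, 0.00663% with the smaller). At an unadjusted p under 0.05, 8 had the larger change in Fabp4CKO and 2 the smaller, 21.3% of those tested against 9.94% of all genes (5.57% and 4.37%). DESeq2 called 1 (Il16), against 1.76% of all genes (1.21% and 0.55%). The interaction was 3.51 for Il12rb2 (SE 1.02, log2, edgeR adjusted p = 0.312), 2.87 for Il16 (SE 0.87, edgeR adjusted p = 0.330; DESeq2 adjusted p = 0.0474), 2.63 for Il18bp (SE 0.86, edgeR adjusted p = 0.353) and 1.18 for Il10ra (SE 0.40, edgeR adjusted p = 0.367). It was -2.62 for Il2ra (SE 0.99, edgeR adjusted p = 0.412). Without ICH-Fabp4CKO 2, 4 members passed (Il10ra, Il10rb, Il12rb2 and Il18bp), 8.16% of those tested against 2.42% of all genes, and 17 had an unadjusted p under 0.05, 34.7% against 21% of all genes. For Il16 the genotypes differed by -2.05 in sham and 0.86 after ICH on the log2 scale, and neither difference passed. Il18r1 also had an unadjusted p under 0.05, but its Sham-Fabp4CKO counts were 0, and no size is given.

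The balance of antagonist and agonist transcripts was read within each mouse, by ratios chosen after the values were seen. These are ratios of CPM, not corrected for transcript length, and are compared between mice only. Il1rn over Il1b was 1.19, 1.13 and 2.14 in ICH-Fabp4fl_fl and 1.70, 2.2 and 3.41 in ICH-Fabp4CKO, with overlap (exact two-sided permutation p = 0.2). Il1rn over Il1a was 1.21, 2.43 and 1.19 against 5.64, 2.0 and 1.49 in the same groups, also with overlap (exact permutation p = 0.3). Il18bp over Il18 was 0.858, 0.710 and 0.692 in ICH-Fabp4fl_fl and 3.13, 0.789 and 7.52 in ICH-Fabp4CKO (exact permutation p = 0.2), so ICH-Fabp4CKO 2 lay within the range of the other genotype. Against sham, this ratio was higher in every ICH mouse of each genotype (exact permutation p = 0.1 each, the smallest that 3 mice against 3 can give). Il1r2 over Il1r1, decoy over signalling receptor, was 0.0968, 0.0865 and 0.0346 in ICH-Fabp4fl_fl and 0.267, 0.137 and 0.103 in ICH-Fabp4CKO, without overlap (exact permutation p = 0.1, again the smallest possible). Between the same groups, summed neutrophil markers were 56.9 to 114 CPM against 77.3 to 360 CPM. Summed endothelial markers were 596 to 1220 CPM against 319 to 444 CPM. The part of these cells in the decoy ratio was not tested. Against sham in Fabp4fl_fl, this decoy ratio overlapped (exact permutation p = 0.3). In Fabp4CKO a sham ratio was 0, so that comparison was not tested. With 3 mice a group, a permutation test cannot reach 0.05.

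**Figure D5:**
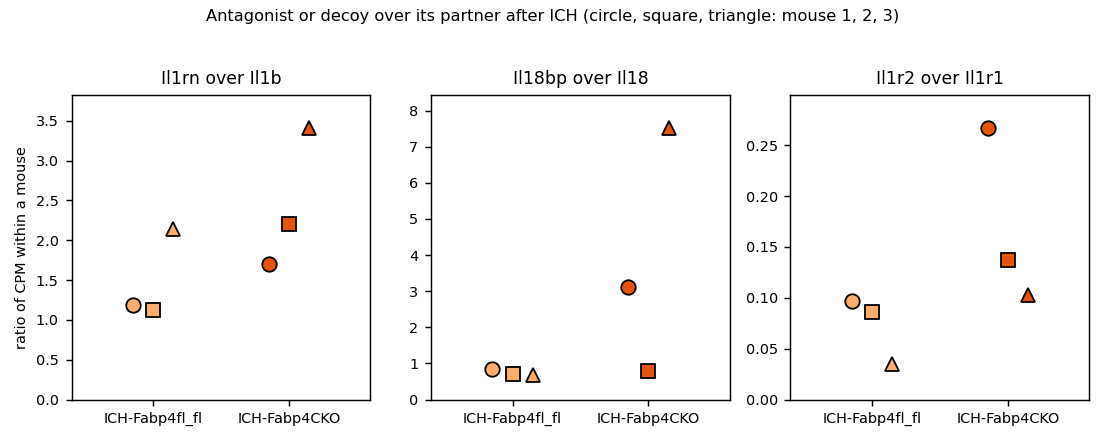
Ratios of CPM within each ICH mouse on axes that start at 0, for antagonist over ligand (Il1rn over Il1b, Il18bp over Il18) and decoy over signalling receptor (Il1r2 over Il1r1). The genotypes overlap in the first and second panels and do not overlap in the panel for Il1r2 over Il1r1.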

How the data were processed

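RNA was sequenced from 12 mouse brain samples, 3 per group, as poly(A) libraries. The authors deposited expected counts per gene, not normalized, which were rounded here. The submitters' processing notes name HISAT2, StringTie 1.3.1, Bowtie2 2.2.8 and DESeq2 without roles, and the genome build is not given in the sources used here. Libraries held 15650813 to 22406216 counts. In edgeR 4.0.16 (R 4.3.3), genes were filtered (filterByExpr, minimum count 10, minimum total 15), TMM-normalized and tested by the quasi-likelihood F-test on the groups compared, or on all 12 libraries for the interaction, with Benjamini-Hochberg adjustment over all genes tested and a threshold of 0.05. CPM used TMM factors of all 12 libraries. SE is the log2 fold change over the root of F. Alternatives were DESeq2 1.42.0, relative log expression, no filter, a replicate block, one fit of 12 libraries, and each library left out. Replicate numbers did not pair the mice. Tests were checked on simulated counts.

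The members, family and partner lists and the rule for named genes were chosen with earlier results of these data known. The rule took a list of 25 members, the 3 members per family of largest change in each direction in Fabp4fl_fl, and the 6 of smallest unadjusted p for each genotype comparison. Other members named were chosen after their values were seen. Motifs were searched in the 250 bases before RefSeq starts (GRCm38.p6) in Python 3.11.15. Exon overlaps come from GENCODE, by symbol.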

Additional observations from a re-analysis of the deposited data

How the results depend on the processing

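Directions held under relative log expression, no filter, DESeq2, the replicate block and the fit of all 12 libraries for every gene named by the rule. Leaving out a library turned the sign in Fabp4fl_fl of Il16 (-0.459 without Sham-Fabp4fl_fl 3 and -0.0373 without ICH-Fabp4fl_fl 1, in a range of -0.459 to 0.831) and Il34 (0.0415 without Sham-Fabp4fl_fl 3, in a range of -0.548 to 0.0415), neither of which passed in the first place. The 1 member lower after ICH in Fabp4CKO became 2 without the filter (Il31ra added), 4 in DESeq2, 3 with 12 libraries in one fit and 2 with the replicate block (Il34 added). The block gave 29 higher there, losing Il11ra1, Il17rc, Il18r1 and Il2rb, and moved no other count of calls. Without the filter, Il6st was lost in Fabp4fl_fl and Il17rc in Fabp4CKO. In no comparison did the deviations of all 3 same-numbered pairs of mice correlate above 0.1 ( 0.205, 0.03 and 0.145 for ICH against sham in Fabp4fl_fl; 0.359, -0.178 and -0.608 between the ICH groups). For genotype after ICH, DESeq2 gave 3 higher and 1 lower and one fit of 12 libraries 1 higher; over all genes DESeq2 called 255 higher and 323 lower, and the fit of 12 libraries 154 and 208, against 0 here. DESeq2 called 1 lower in sham and 1 in the interaction. The cause of these differences was not tested.

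With 1 library left out, members higher after ICH were 22 to 31 in Fabp4fl_fl (lower 0 to 2) and 17 to 36 in Fabp4CKO (lower 0 to 5). The share of all genes called higher moved as well, from 17.6 to 28.9% in Fabp4fl_fl and from 4.69 to 34.8% in Fabp4CKO. Members with an unadjusted p under 0.05 were 3 to 19 for genotype after ICH, 2 to 9 in sham and 6 to 17 for the interaction. The shares of all genes were 7.23 to 20.6%, 5.15 to 33.8% and 7.21 to 21% in that order. Adjusted calls were 0 to 1 higher and 0 to 5 lower in sham, and 0 to 4 higher for the interaction, the upper ends from fits that called 19.6% and 2.42% of all genes. A group left with 2 mice borrows its spread from the other group. Il12rb2 was below the count filter without ICH-Fabp4CKO 3, so that value could not be fitted. Depth is a limit for the 22 members that never exceeded 3 counts.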
